A study of Mus musculus with 96 samples.

Results

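OCT4 binding after 4 days of GATA6 induction was compared with its binding after 2 days over all 42403 regions of the genome at which GATA6 was found. All regions were members of this comparison, so that none was chosen by its OCT4 signal. The OCT4 signal came from 4 of the 96 libraries that the labels list, namely 2 collected at 48 h and 2 collected at 96 h of doxycycline (Dox) at 1 µg/mL. Binding was read by ChIP-seq, which sequences the DNA fragments that an antibody, here against OCT4, pulls out of fixed chromatin. The cells were KH2 mouse embryonic stem (ES) cells of a C57BL/6 x 129/Sv background with a Dox-inducible, HA-tagged Gata6 transgene. They were grown on feeder cells in serum and LIF, and hygromycin-resistant clones were used. The transgene answers to Dox and not to a promoter of the lineage, Dox was present at both time points, and which clone gave a library is not given in the sources used here. Input chromatin, sequenced without antibody, was available for both days in 2 libraries each. XEN cells, stem cells of extra-embryonic endoderm derived from the primitive endoderm (PrE), received no Dox. They were profiled with the OCT4 antibody in 1 library and served as the level in another cell type. By the methods of the study, the libraries of a day came from independent chromatin preparations. Whether these go back to separate inductions is not stated there for each library, and the p-values measure the spread between the preparations. In bulk samples, fewer cells with OCT4 on a region and less OCT4 per cell cannot be told apart.

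OCT4, encoded by Pou5f1, is a POU-family factor that maintains pluripotency in ES cells, where it binds DNA mostly together with SOX2 at a composite OCT:SOX motif. SOX17, a SOX factor of the endoderm, can pair with OCT4 as well, and favors a compressed form of the composite motif that lacks a base between the SOX and the OCT part. GATA6 is a master regulator of the PrE, the lineage of the blastocyst that gives rise to the yolk sac, and in that lineage pluripotency factors are eventually silenced.

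The sequences below are the best OCT:SOX matches that the authors deposited for regions described further on, read from the GRCm38.p6 genome on the strand of the match, 5′ to 3′. They are shown so that the matches can be read beside the OCT4 values of their regions, and no test was made between them. Lower case marks the SOX part and capitals the 8 bases of the OCT part. The first 4 lie in regions whose pooled OCT4 was at least as high at day 4 as at day 2, of which Slc7a6 was called higher, Mreg and Sox17 were not called and Gata4 was not tested. The other 6 lie in regions whose pooled OCT4 was lower at day 4, all called lower but that of Pou5f1, which was not tested.
Slc7a6 intron, chr8:106173671-106173685, plus strand: atttgtcATGTTGAT
Mreg upstream region, chr1:72229168-72229182, minus strand: aattgttATGCAAAA
Sox17 upstream region, chr1:4538109-4538123, minus strand: tattgttATGTATTT
Gata4 intron, chr14:63265778-63265792, minus strand: cattgacAAGCAGAA
Lefty1 upstream region, chr1:180933869-180933883, minus strand: ctttgttATGCAGAA
Pou5f1 upstream region, chr17:35504049-35504063, minus strand: ctttgttATGCATCT
Lefty2 upstream region, chr1:180888826-180888840, minus strand: ttttgtgATGCAAAA
Tfcp2l1 intron, chr1:118648180-118648194, minus strand: ctttgtgATGTAAAC
Sox7 upstream region, chr14:63936679-63936693, plus strand: ctttcatATGCAAAC
Nt5e intron, chr9:88332552-88332566, plus strand: ctttgtcATGGTGAT
The scores of these matches ran from 9.07 at Sox17 to 18.5 at Lefty1. The Lefty1, Pou5f1, Lefty2 and Mreg regions held the canonical letters TTGTNATGC on one of the strands, while none of the 10 held the compressed letters TTGTATGC.

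The deposited values were reads on each region scaled to the size of the library (RPM), pooled over the libraries of a day. Every pooled value is the mean of a whole number of reads in each library over that library's size, from which the libraries could be taken apart. They are called A and B here, with A the deeper, and these letters match no replicate number. At day 2, library A held 37.7 M reads and library B 17.0 M, of which 7.08% and 7.82% fell on the regions. At day 4, the libraries held 23.4 M and 17.5 M reads, with 6.15% and 5.80% on the regions. The inputs of both days held 8.85 M to 27.4 M reads, with 2.22% to 2.78% on the regions. For 42125 regions the reads of each library followed without ambiguity, and the other 278, all at 10.0 RPM or more at day 2, were left out of the test and are described by their pooled values. The table lists no region at 0. Across regions, the Pearson correlation of log2 RPM was 0.926 between the libraries of day 2, 0.879 between those of day 4 and 0.652 to 0.756 across days (42403 regions, which are not independent replicates, 278 of them with the pair of reads nearest to the ratio of the libraries).

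OCT4 was lower at day 4 on more regions than it was higher, but most regions did not pass the test. On the log2(RPM + 0.167) scale, which understates the change of low regions, 9607 of the 42125 regions tested were called lower and 4401 higher (limma on the 4 libraries, Benjamini-Hochberg adjusted p under 0.05), which is 22.8% and 10.4%. The median change over all tested regions was -0.17. Of all calls, 68.6% were lower. This split depends on how the libraries are scaled. It was 52.3% with 7396 regions lower and 6740 higher when each library was centred on its median over regions, which brings the median change near 0 by construction (0.03), and 79.4% with 10546 lower and 2744 higher for the log2 ratio to input, where the median change was -0.30.

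**Figure D1:**
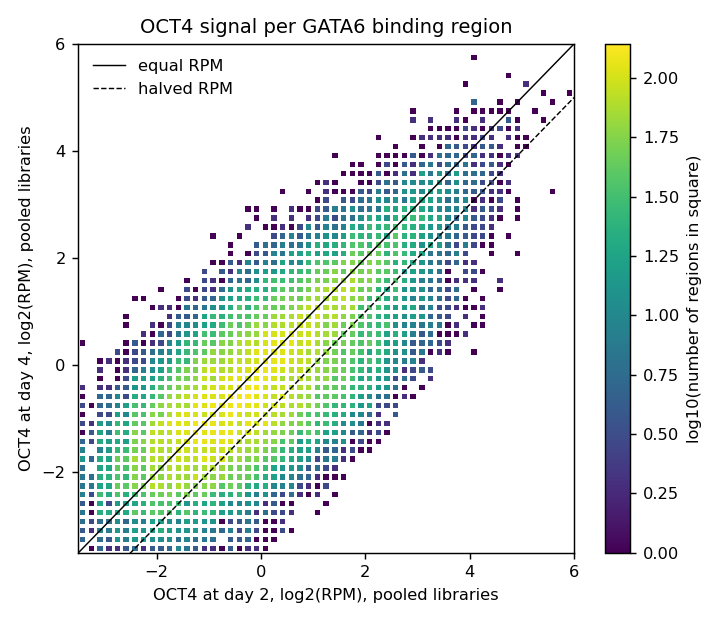
Number of regions (colour, log10 scale) by pooled OCT4 signal at day 2 (horizontal axis, log2 RPM) and day 4 (vertical axis, log2 RPM), with lines for equal and halved signal. The cloud spreads on both sides of the line of equal signal, and more of the regions with high signal at day 2 lie below it than above.

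A region was counted as bound by OCT4 at day 2 where its signal reached 1 RPM and 2 times the input of the day, and as kept where the signal at day 4 still reached 2 times the input of that day. By these limits 16926 regions (39.9%) were bound at day 2, of which 9708 (57.4%) kept OCT4 and 7218 lost it. The floor of 1 RPM was not asked at day 4 for kept. Of the kept regions, 87.0% also passed it, so that the kept share would be lower with the same limits on both days. With each day 2 library set against each day 4 library, the kept share ran from 52.4% to 61.4% (SD 4.37 percentage points over the library pairs). The pairs share libraries and the pooled inputs, so that they are not independent and leave out the spread of the inputs. Ranges over these pairs, here and below, are a description and no interval for a difference between classes. A further 3212 regions passed both limits at day 4 without having passed them at day 2, and are called new. Of these, 23.9% had reached 2 times the input at day 2 already and lacked only the floor of 1 RPM. These limits are not peak calls. Of the new regions, 2839 (88.4%) are in the class of the authors without a peak of any pluripotency factor, as are 2988 of the bound regions. Since these groups were set from OCT4 itself, their OCT4 values are given as a description and support no test.

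Regions that kept OCT4 had a median signal of 2.62 and 3.11 RPM in the libraries A and B of day 2, and of 2.43 and 2.34 RPM in those of day 4. Regions that lost it started at 1.91 and 2.0 RPM and ended at 0.896 and 0.743 RPM. The day 4 medians of the lost regions were thus below the day 2 medians in both libraries, while those of the kept regions were lower by less. The median change was -0.25 for kept, -1.13 for lost and 0.95 for new regions. Kept does not mean unaltered, since 2626 of the 9445 kept regions tested (27.8%) were called lower, against 904 called higher. Among lost regions, 4924 of 7203 (68.4%) were called lower and 5 higher, and 1937 of the 3212 new regions (60.3%) were called higher. The new regions had a median of 0.742 and 0.881 RPM in the day 2 libraries and of 1.54 and 1.66 RPM in the day 4 libraries.

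SOX17 was the first property compared. Of the bound regions at which the authors called a SOX17 peak, 73.2% (7821 of 10680) kept OCT4, against 30.2% (1887 of 6246) of those without a SOX17 peak. Over the library pairs, the share ran from 69.6% to 74.9% with SOX17 and from 24.4% to 38.0% without, so that the ranges did not overlap. The median OCT4 change was -0.32 with SOX17 and -1.11 without. Of the tested bound regions, 3311 of 10413 (31.8%) with SOX17 and 4239 of 6235 (68.0%) without were called lower, and 896 and 13 were called higher. Over all tested bound regions, 45.4% were called lower and 5.46% higher. Bound regions with SOX17 started from a higher OCT4 level, with a median of 2.89 RPM against 1.83 RPM at day 2. The difference of 43.0 percentage points in kept share was 38.7, 38.5, 38.4 and 37.7 points within the quartiles of OCT4 signal at day 2, from lowest to highest. Since regions are not replicates of a condition, no test was made between classes of regions.

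The SOX17 signal itself gave the same order. From the lowest to the highest quartile of SOX17 RPM at day 4, taken over all regions, the kept share was 22.1%, 32.6%, 54.6% and 83.2%. With the quartiles of SOX17 RPM at day 2, before the outcome, the shares were 23.3%, 31.4%, 46.3% and 71.6%. In the top quartile at day 4, OCT4 was nearly level, with a median change of -0.07, and 1019 of 6655 tested bound regions were called lower and 866 higher. In the bottom quartile the median change was -1.57, 2243 of 2391 were called lower and 0 higher. The shares over all tested bound regions were 45.4% lower and 5.46% higher. Quartiles of RPM also separate wide regions with many reads from narrow ones. The median width of bound regions was 553 bp in the lowest and 936 bp in the highest quartile of SOX17 RPM at day 4. From the lowest to the highest quartile of input at day 4 the kept share was 66.7%, 51.2%, 51.3% and 62.0%. Input enters the limit for kept, so that its quartiles cannot tell what width contributes, which was not tested.

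**Figure D2:**
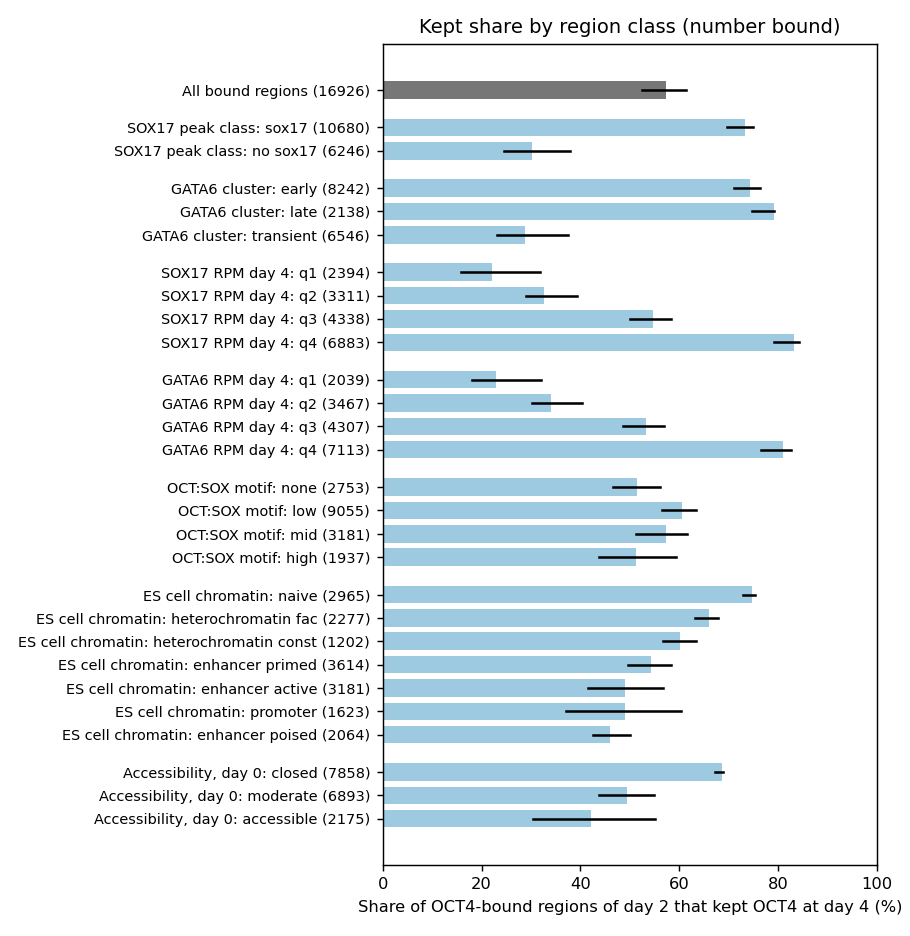
Kept share (bars, percent of the OCT4-bound regions of day 2, whose number is in brackets) by region class, with lines from the lowest to the highest share over the pairs of a day 2 and a day 4 library. Shares rise with SOX17 and GATA6 signal at day 4 and run from 51.3% to 60.5% over the OCT:SOX motif classes.

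GATA6 binding followed a similar course. The authors grouped the regions by the time course of GATA6, into regions bound early and throughout, regions bound late and regions bound transiently. Early regions kept OCT4 in 74.4% of cases (6131 of 8242), late regions in 79.1% (1691 of 2138) and transient regions in 28.8% (1886 of 6546). The late regions were the only one of these classes with a positive median change, 0.17, against -0.38 for early and -1.24 for transient regions. Late regions were rarely bound by OCT4 at day 2 (15.0%), but held 2365 of the 3212 new regions. By quartile of GATA6 RPM at day 4 the kept share was 22.9%, 34.0%, 53.3% and 81.1%. Because the time course and the quartiles include GATA6 at day 4, they describe where both factors were found on that day and do not precede the outcome. By quartile of GATA6 RPM at day 2 the shares were 24.6%, 34.9%, 48.7% and 69.1%.

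Both classes together sorted the regions further. Among early regions, 79.7% kept OCT4 with a SOX17 peak and 46.3% without. Among late regions the shares were 84.7% and 50.7%, and among transient regions 39.9% and 24.1%. In the top quartiles of both SOX17 and GATA6 at day 4, 5201 of 6129 bound regions (84.9%) kept OCT4, and in the bottom quartiles of both, 311 of 1552 (20.0%). The signals of both factors go together, so that few regions were high in only 1 of them: 724 bound regions were in the top quartile of SOX17 and the third of GATA6, with a kept share of 69.9%, and 970 the other way round, with 58.0%.

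**Figure D3:**
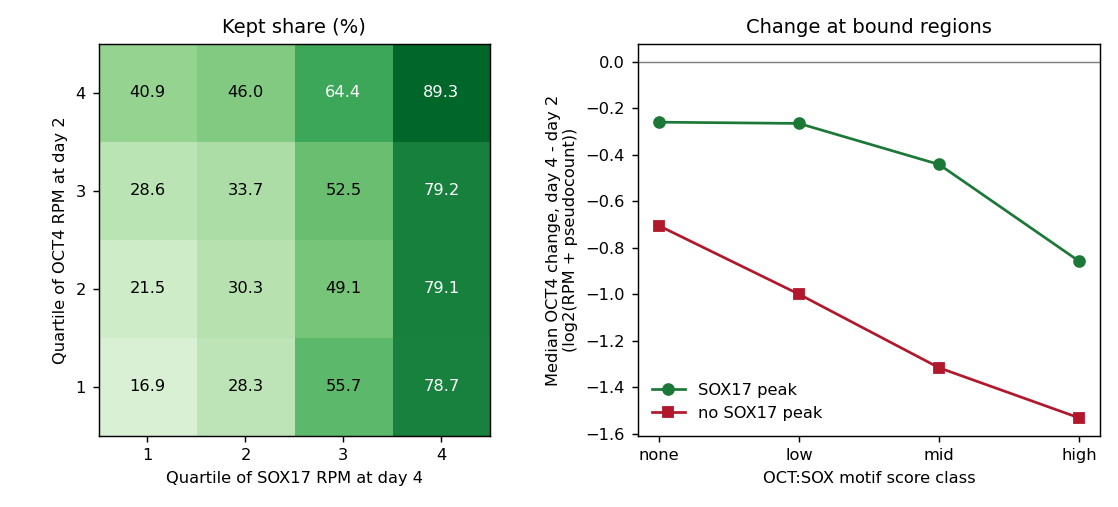
Left, kept share (percent) by quartile of OCT4 RPM at day 2 (vertical) and of SOX17 RPM at day 4 (horizontal), from 16.9% in the lowest quartiles of both to 89.3% in the highest. Right, median OCT4 change (log2 scale, day 4 minus day 2) at bound regions by OCT:SOX motif class, which is more negative in higher motif classes both with (circles) and without (squares) a SOX17 peak.

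Regions were classed by the authors by the score of their best match to the OCT:SOX motif. The share of regions bound at day 2 was 22.8% without a match, 41.7% with a low, 55.1% with a mid and 68.3% with a high score. Of these bound regions, 51.4%, 60.5%, 57.3% and 51.3% kept OCT4. Over the library pairs the share ran from 43.8% to 59.3% for high and from 56.4% to 63.4% for low scores. The difference between the high and the low class was -9.20 percentage points, and -12.8 and -4.31 points with each day 4 library alone. At matched OCT4 it was larger, with -18.0, -17.0, -14.4 and -9.42 points within the quartiles of OCT4 signal at day 2, from lowest to highest. The median change was -0.42 without a match and -0.52, -0.85 and -1.32 with a low, mid and high score. In the high class, 1368 of 1862 tested bound regions (73.5%) were called lower, beside 45.4% of all tested bound regions. High-score regions started higher, at a median of 3.09 RPM at day 2 against 2.35 RPM for low scores, and ended lower, at 1.11 against 1.67 RPM.

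Split by SOX17, the motif classes had different shares than when pooled. With a SOX17 peak, 63.3% of bound regions without a match, 74.8% with a low, 76.4% with a mid and 76.3% with a high score kept OCT4. Without SOX17 the shares were 29.0%, 29.4%, 30.9% and 32.5%. Neither with nor without SOX17 was the kept share of high-score regions below that of low-score regions, and of the high-score bound regions 1107 lacked and 830 had a SOX17 peak. The median change still ran from -0.26 without a match to -0.86 with a high score at regions with SOX17, and from -0.70 to -1.53 at regions without.

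The letters of the motif were also searched in the sequence of all regions, on both strands. The canonical form, TTGTNATGC, was present in 1226 regions (2.89%) and the compressed form, TTGTATGC, in 798 (1.88%). A match describes the letters and is not a measured site. Of the bound regions with the canonical form, 463 of 839 (55.2%) kept OCT4, with a median change of -1.25. Of those with the compressed form, 407 of 546 (74.5%) kept it, with a median change of -0.43. Among kept regions 4.19% held the compressed form, among lost regions 1.93%, among new regions 2.30% and among regions bound on neither day 0.799%. In the same order the median widths were 797.5, 702, 598 and 398 bp, and wider regions have more room for a match. The part of width in these shares was not tested. The canonical form was in 4.77% of kept, 5.21% of lost and 1.81% of new regions. Most bound regions with the compressed form had a SOX17 peak, as did 10680 of all 16926 bound regions. With the peak and the form, 84.3% (370 of 439) kept OCT4, against 72.8% of bound SOX17 regions without the form. Without SOX17, the shares were 34.6% (37 of 107) and 30.1%.

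The chromatin state that the regions had in ES cells, which the authors took from histone marks of undifferentiated cells, preceded the outcome. Regions in the class called naive kept OCT4 in 74.7% of cases (2214 of 2965). Facultative heterochromatin, the state of Polycomb-silenced genes, kept it in 66.0% and constitutive heterochromatin in 60.1%. Primed enhancers followed with 54.3%, active enhancers with 49.1%, promoters with 48.9% and poised enhancers with 46.1%. Apart from naive regions and facultative heterochromatin, neighbours in this order overlapped in their ranges over library pairs. For naive regions this range was 73.0% to 75.3% and for active enhancers 41.6% to 56.8%, so that these classes did not overlap, whereas that of promoters, 37.0% to 60.5%, spanned the shares of active, poised and primed enhancers. The difference between naive regions and active enhancers was 25.6 percentage points, and 39.1, 38.4, 37.5 and 24.6 points within the quartiles of OCT4 signal at day 2, from lowest to highest. The median change was -0.99 at active enhancers, where 1933 of 3077 tested bound regions (62.8%) were called lower, and -0.32 at naive regions, where 954 of 2931 (32.5%) were. The share called lower over all tested bound regions was 45.4%. The order was similar within SOX17 regions, where the kept share was 86.3% at naive regions, 66.9% at active enhancers, 63.2% at poised enhancers and 60.5% at promoters, and narrower without SOX17, from 25% at poised enhancers to 39.0% at naive regions.

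Accessibility before Dox gave a related order. Closed regions kept OCT4 in 68.6% of cases (5390 of 7858), moderately accessible regions in 49.4% and accessible regions in 42.1% (915 of 2175). With a SOX17 peak these shares were 80.5%, 67.3% and 55.8%, and without one 35.9%, 27.1% and 27.9%. Accessible regions had the widest spread over library pairs, from 30.5% to 55.1%. Closed regions ran from 67.2% to 68.9%, so that the closed and the accessible class did not overlap. Distance to the closest transcription start site made less difference, with 49.6% within 1 kb, 62.0% at 1 to 10 kb, 57.8% at 10 to 100 kb and 54.2% beyond. Regions that the authors classed by peaks of pluripotency factors kept OCT4 in 50.2% of cases where these factors were bound before Dox (3802 of 7576) and in 75.2% where they appeared only during induction (4785 of 6362). Where no peak of these factors was called, the share was 37.5% (1121 of 2988). The SOX17 class and this last class rest on peak calls, the latter including calls from these OCT4 libraries, and are not independent evidence.

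Other factors at the same regions separated kept from lost as well, although they entered no limit. SOX2, the partner of OCT4 in ES cells, had a median of 2.34 RPM at day 2 and 2.27 RPM at day 4 on kept regions, and of 1.81 and 0.793 RPM on lost regions. New regions had 0.790 and 2.12 RPM of SOX2. SOX17 went from 3.19 to 3.67 RPM on kept, from 1.62 to 0.904 RPM on lost and from 1.18 to 3.44 RPM on new regions, and GATA6 from 3.13 to 3.69, from 1.91 to 1.21 and from 1.27 to 3.32 RPM. ESRRB, an orphan nuclear receptor of the pluripotency network, was low on both days, at 0.878 and 0.658 RPM on kept and 0.769 and 0.502 RPM on lost regions. These are medians of pooled values over regions, with no error between libraries. Before Dox, the SOX17 antibody already passed 1 RPM and 2 times the input at 24.4% of kept, 30.5% of lost and 0.903% of new regions. In XEN cells the SOX2 antibody passed these limits at 8.95%, 1.41% and 9.84%. Whether either antibody also reads another SOX factor was not tested. Over the 16926 bound regions, the Spearman correlation of the OCT4 change was 0.88 with the change of SOX2, 0.83 with that of GATA6, 0.81 with that of SOX17, 0.40 with that of ESRRB and 0.41 with that of input. The factors were measured in different libraries, but they share region widths and the cells of each day, and the change of input was not removed from these values.

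Before Dox, kept regions had less OCT4 than lost regions, with a median of 1.5 against 1.90 RPM, and the order was turned at day 2, with 2.88 against 1.95 RPM. SOX2 before Dox was also lower on kept regions, with 1.78 against 2.35 RPM. New regions had a median of 0.493 RPM of OCT4 before Dox. In XEN cells the OCT4 antibody gave a median of 0.80 RPM on kept and 0.533 RPM on lost regions, which was 1.01 and 0.913 times the XEN input. Both OCT4 limits were passed in XEN cells by 4.07% of kept and 2.55% of lost regions, against 87.0% of kept regions at day 4.

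**Figure D4:**
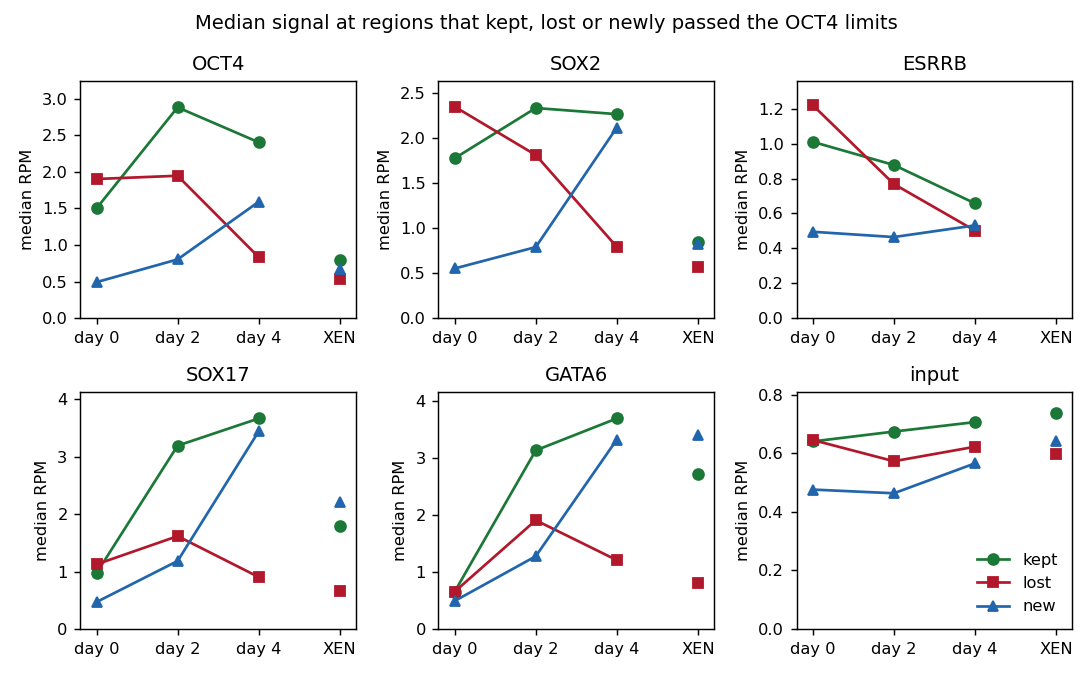
Median RPM of each factor and of input before Dox, at days 2 and 4 and in XEN cells, with no XEN value for ESRRB. Regions are kept (circles), lost (squares) or new (triangles) by the OCT4 limits of the text. OCT4, SOX2, SOX17 and GATA6 stay high at day 4 on kept regions. From day 2 to day 4, median input goes from 0.674 to 0.706 RPM on kept and from 0.573 to 0.622 RPM on lost regions. On new regions it goes from 0.463 to 0.565 RPM.

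Regions were next assigned to genes of the PrE and of pluripotency by their closest protein-coding start site within 100 kb. Regions of PrE genes mostly kept OCT4. All 25 genes of this list had a region, 225 in total, and 103 of the 130 bound regions (79.2%) kept OCT4, with 34 more new. Of 221 regions tested, 15 were called lower and 50 higher (6.79% and 22.6%, beside 22.8% and 10.4% of all regions). The count of higher regions was 77 with median centring, 25 with the ratio to input and 19 without library A of day 2, while that of lower regions was 10, 15 and 10. Of the pluripotency genes, 24 of 25 had a region, Fgf4 being the exception. Of their 115 bound regions, 64 (55.7%) kept OCT4, with 5 new. Over all bound regions the kept share was 57.4%. Of 161 regions tested, 76 were called lower and 8 higher (47.2% and 4.97%). Lower regions numbered 58 with median centring and 71 with the ratio to input, and 51 to 75 with any of the libraries left out. SOX17 peaks were present at 86.9% of the bound regions of PrE genes and at 69.6% of those of pluripotency genes. Among all 16926 bound regions, 10680 had one. Both lists were richer in bound regions, with 130 of 225 and 115 of 169, than all regions, with 39.9%. Of all bound regions tested, 45.4% were called lower and 5.46% higher.

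For each gene, the bound region with the most OCT4 at day 2 is described. Among 22 PrE genes with such a region, 21 regions kept OCT4. The transcription factors of the lineage come first. At Gata4, encoding a GATA factor that acts beside GATA6, the intronic region chr14:63264284-63266085 had 19.7 RPM at day 2, where the libraries could not be separated, and 23.3 and 18.9 RPM at day 4. At Sox17, the region chr1:4536608-4538990, 40.4 kb upstream, had 10.4 and 14.3 RPM at day 2 and 14.8 and 14.4 RPM at day 4 (log2 change 0.26 ± 0.26 SE, limma adjusted p = 0.47). Both day 4 libraries lay just above the higher day 2 library, and the change did not pass the test.

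At Gata6 itself, 2 of 5 bound regions kept OCT4 and 3 lost it, with 1 more new. The described region, intronic and 0.3 kb from the start, had 6.04 and 6.52 RPM at day 2 and 8.79 and 12.6 RPM at day 4. It was called higher (0.73 ± 0.27 SE, limma adjusted p = 0.024), but not with the ratio to input, where the change was 0.39, nor without either day 2 library (0.68 and 0.79) or library B of day 4 (0.48). Foxa2, a forkhead factor of endoderm, had 5.75 and 8.46 RPM at day 2 and 4.82 and 6.63 RPM at day 4, with overlapping libraries (limma adjusted p = 0.43). Sox7, a SOX factor of the same subfamily as SOX17, went the other way. Its upstream region chr14:63936168-63937095 had 5.03 and 5.88 RPM at day 2 and 1.37 and 1.32 RPM at day 4 (-1.90 ± 0.29 SE, limma adjusted p = 1.9e-08). It had no SOX17 peak and transient GATA6, and it still counted as kept because its input was lower at day 4, at 0.283 RPM against 0.953 RPM at day 2. With the ratio to input its change was -0.58 and not called.

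Of the genes of basement membrane, which PrE cells deposit, most kept a strong OCT4 signal. Lamb1, a laminin chain, had 5.30 and 6.82 RPM at day 2 and 12 and 10.1 RPM at day 4, and was called higher (0.85 ± 0.27 SE, limma adjusted p = 0.0075). The collagen IV genes Col4a1 and Col4a2, which lie next to each other, were also called higher, by 0.72 ± 0.26 and 0.62 ± 0.25 (SE), as was Pth1r, a receptor of parathyroid hormone-related peptide, by 0.76 ± 0.28. None of these calls held for the ratio to input. The Lamb1, Col4a1 and Col4a2 calls were also lost without library A of day 2 (0.68, 0.48 and 0.42) or of day 4 (0.73, 0.53 and 0.35), and the Pth1r call without any of 3 libraries (0.52 to 0.80). Input was higher at day 4 at these regions too, with 3.29 and 6.53 RPM at Col4a2, where the change of the ratio to input was -0.34. The part of the input in these differences was not tested. Lamc1, another laminin chain, had the highest OCT4 signal of the list, with 28.5 and 38.5 RPM at day 2, and was lower at day 4, with 21.1 and 17.1 RPM (-0.80 ± 0.25 SE, limma adjusted p = 0.0073), a call that was lost with the ratio to input (-0.70) and without library B of day 2 (-0.58) or of day 4 (-0.65). The regions of Lama1, Serpinh1, Sparc and Nid1 differed between days by 0.02, 0.23, 0.17 and 0.01 on the pooled log2 scale, and were not called or, for Lama1, not tested.

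Receptors of the PrE differed among themselves. Pdgfra, whose product marks the PrE, had 22.5 and 29.1 RPM of OCT4 at day 2 at chr5:75145915-75148017, 5.3 kb upstream, and 8.75 and 10.7 RPM at day 4 (-1.39 ± 0.26 SE, limma adjusted p = 2.6e-06). In the pooled columns, its GATA6 signal was 22.7 RPM at day 2 and 8.32 RPM at day 4, and its SOX17 signal 15.9 and 7.43 RPM. Cubn and Lrp2 encode endocytic receptors of the visceral endoderm, and Amn encodes the partner of cubilin. Cubn had 20.2 RPM at day 2 and 15.0 to 15.7 RPM at day 4, and was not tested. At Amn, OCT4 went from 7.15 and 7.23 RPM to 2.35 and 1.89 RPM (-1.70 ± 0.28 SE, limma adjusted p = 2e-07), the only region of this set that counted as lost, and GATA6 there was transient. In all, 6 of the 19 tested regions of the set were called lower, 5 higher and 8 not called. Of all bound regions tested, 45.4% were called lower and 5.46% higher, and of those in the top quartile of OCT4 at day 2, 53.4% and 3.72%. The described regions were picked for the most OCT4 at day 2, the level from which the change is measured. No bound region was found for Hnf4a, Fst and Stra6.

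Of the 24 regions of pluripotency genes, 16 kept OCT4 and 8 lost it, and of the 19 tested, 16 were called lower, 0 higher and 3 not called, where 45.4% of all bound regions were called lower and 5.46% higher. These regions too were picked for high OCT4 at day 2, so that the share given above for the top quartile of OCT4 at day 2 applies here as well. Most of them are in the class with pluripotency factors bound before Dox. In that class, 70.2% of tested bound regions were called lower and 0.980% higher. Otx2, a homeobox gene of the transition to formative pluripotency, fell most. At chr14:48700718-48702037 it had 11.8 and 7.64 RPM at day 2 and 1.96 and 0.80 RPM at day 4 (-2.75 ± 0.29 SE, limma adjusted p = 9e-15). The Nodal inhibitor gene Lefty1, which carries the best motif match of the set, fell from 17.3 and 13.6 RPM to 4.18 and 3.09 RPM (-2.04 ± 0.27 SE, limma adjusted p = 7.4e-11), 0.8 kb upstream of its start. Its neighbour Lefty2 fell from 8.88 and 6.35 RPM to 2.26 and 1.32 RPM. In all of these, both day 4 libraries lay below both day 2 libraries.

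At Pou5f1, the gene of OCT4, the region chr17:35503642-35504431, 2.0 kb upstream, had 15.8 RPM at day 2 and 4.40 and 4.12 RPM at day 4. Its day 2 libraries could not be separated, so that it was not tested. It counted as kept, at 5.79 times the input of day 4. Nr0b1, a nuclear receptor gene of the network, Zfp42, the marker gene also known as Rex1, Klf2 and Klf4, which encode Krüppel-like factors of naive pluripotency, and Tfcp2l1, a factor downstream of LIF, were each called lower, with changes of -2.16, -1.97, -1.94, -1.56 and -1.86. Tdgf1, the gene of the Nodal co-receptor, fell by 2.07.

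The described regions of Nanog and Sox2, core genes of pluripotency, were not called. Nor was that of Utf1, which counted as lost (-0.65 ± 0.28 SE, limma adjusted p = 0.063). Of their bound regions, 3 of 5 kept OCT4 at Nanog and 2 of 6 at Sox2. The region assigned to Nanog, chr6:122751458-122752210, lies 44.3 kb downstream within another gene. It had 6.60 and 9.64 RPM at day 2 and 10.8 and 10.4 RPM at day 4 (0.40 ± 0.27 SE, limma adjusted p = 0.26), and with median centring its change of 0.60 was called higher. The Sox2 region, 70.7 kb downstream, had 5.43 and 6.58 RPM at day 2 and 3.59 and 5.32 RPM at day 4 (-0.44 ± 0.28 SE, limma adjusted p = 0.22). Tbx3, a T-box factor of both pluripotency and PrE, had the most OCT4 of the set, with 31.2 and 32.0 RPM at day 2 and 20.5 and 15.7 RPM at day 4 (-0.81 ± 0.25 SE, limma adjusted p = 0.0063). Its call was lost with the ratio to input (-0.58) and without library B of day 4 (-0.62). The assignment to a gene rests on distance alone.

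**Figure D5:**
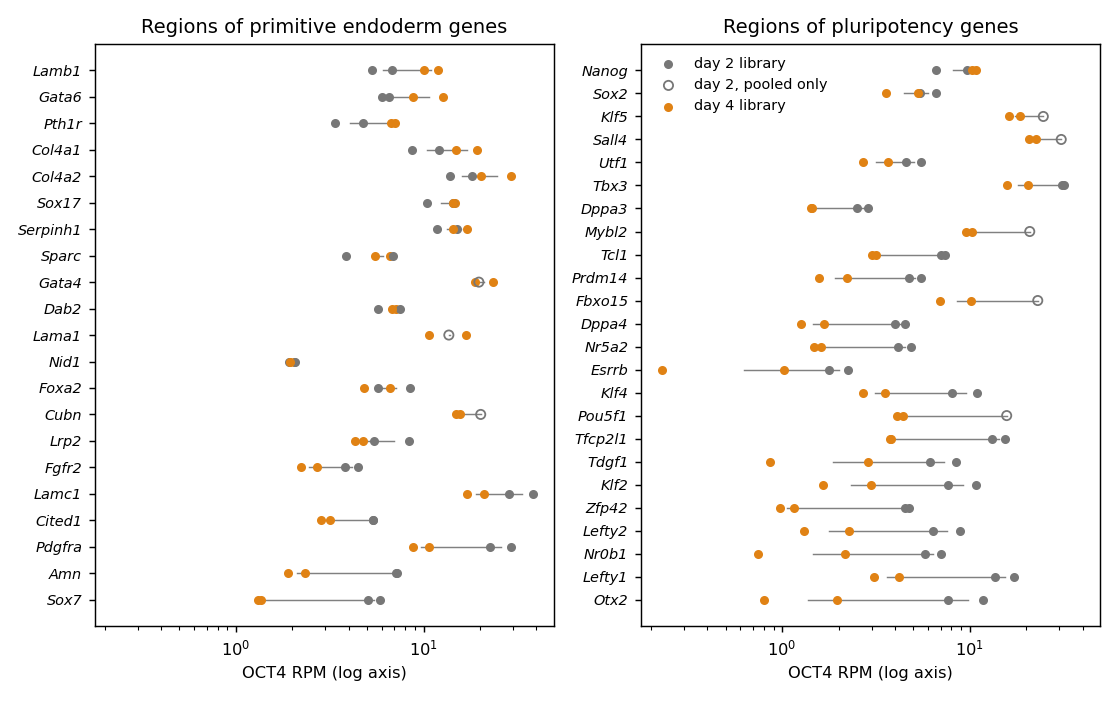
OCT4 RPM (log axis) of each library of day 2 (grey, open where only the pooled value is known) and day 4 (orange) at the bound region with the most OCT4 at day 2 of the genes shown, ordered by change, with a line between the pooled values. Regions of PrE genes lie on both sides of no change, while nearly all regions of pluripotency genes are lower at day 4.

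The 5 kept regions with the most OCT4 at day 4 had other closest genes than those of these lists. The highest, in an intron of the amino acid transporter gene Slc7a6 (chr8:106171593-106174182), had 14.7 and 19.9 RPM at day 2 and 52.2 and 50.9 RPM at day 4 (1.58 ± 0.25 SE, limma adjusted p = 2.5e-08). Its SOX17 signal went from 35.5 to 84.4 RPM and its GATA6 signal from 23.9 to 60.7 RPM, while input went from 2.82 to 5.54 RPM. An intron of the histone demethylase gene Phf2 (chr13:48852841-48854148), which holds the compressed letters, followed the same course, with 12.4 and 18.7 RPM at day 2 and 45.3 and 34.3 RPM at day 4 (1.36 ± 0.25 SE, limma adjusted p = 2.6e-06). The region of Mreg (chr1:72228613-72231130), with a canonical match, was level, with 32.4 and 38.5 RPM at day 2 and 43.5 and 32.8 RPM at day 4 (limma adjusted p = 0.79). The other regions among the 5 highest were near C9, with 26.8 RPM at day 2 and 47.1 and 33.8 RPM at day 4, and near Fgf10, with 32.5 RPM and 40.4 and 33.3 RPM, neither of which was tested. All 5 had a SOX17 peak and early GATA6, and 4 of them, Slc7a6, C9, Phf2 and Fgf10, were naive and closed before Dox. Of all kept regions, 80.6% had a SOX17 peak, 63.2% had early GATA6, 22.8% were naive and 55.5% were closed.

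The largest losses were followed among the 523 lost regions with at least 5 RPM at day 2. The Fam53a region (chr5:33535273-33536607) went from 20.1 and 16.7 RPM to 2.13 and 1.31 RPM (-3.33 ± 0.27 SE, limma adjusted p = 7.9e-22). The region of Itga4, an integrin gene, went from 9.64 and 9.40 RPM to 1.07 and 0.572 RPM (-3.34 ± 0.29 SE, limma adjusted p = 4.3e-20). The intron of Nt5e, the gene of a cell-surface nucleotidase, went from 26.3 and 23.1 RPM to 3.37 and 1.77 RPM (-3.25 ± 0.27 SE, limma adjusted p = 8.4e-22). The regions of Tsc22d1 (10.1 RPM at day 2, 1.15 and 0.572 RPM at day 4) and Lmx1b (14.4 RPM, then 1.84 and 1.03 RPM) could not be tested. At all 5, pluripotency factors were bound before Dox by the class of the authors, with OCT4 at 7.08 to 24.5 RPM. SOX17 had a peak at 4 of them, Itga4 being the exception, but at day 4 its signal was 0.511 to 1.31 RPM. GATA6 was transient at 4 of them and early at Nt5e, where it went from 12 to 3.09 RPM. Of all lost regions, 52.3% had pluripotency factors bound before Dox, 39.6% had a SOX17 peak and 64.6% had transient GATA6.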

How the data were processed

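After adapter trimming (cutadapt), reads were aligned to mm10 by the authors (bowtie2), filtered on mapping quality and freed of duplicates by unique molecular identifiers. Peaks came from MACS2 on merged replicates if also found in each replicate, and bamsignals counted the reads per region. The values deposited by the authors are RPM, a single pooled value per condition, whose depth is given above. For motifs, the deposited score is that of the best FIMO match. The other deposited columns used are classes. Not all of the 105 columns were used, and those left out include 14 with values of ATAC-seq or of ENCODE data.

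Each pooled RPM value is the mean of the libraries of a day, and was solved for the whole reads of both libraries. Log2(RPM + pseudocount) of the 4 libraries, with the pseudocount at percentile 5 of the OCT4 values, was fitted with limma 3.58.1 in R 4.3.3, with trend and robust eBayes and Benjamini-Hochberg adjustment over all regions. Both steps were also run on simulated data of the same form, with changes at far fewer regions than were called here. Those runs check the working of the steps and not the calls. Other calculations used Python 3.11.15 with numpy 2.4.6 and pandas 2.3.3. Region coordinates are printed as deposited. Genes, start sites and sequence came from the GRCm38.p6 reference, the assembly that mm10 names.

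Genes named in the text belong to a list of PrE and a list of pluripotency genes, each described by its bound region with the most OCT4 at day 2. Besides, the 5 kept regions with the most OCT4 at day 4 and the 5 lost regions with the largest fall from at least 5 RPM are named. Only some of these are described, and 1 gene counted in the lists is not reported here. The comparison and the lists were chosen with earlier results of these data known. Alternatives were other pseudocounts, a filter on low values, other scalings, a fold limit, other limits for bound and kept, quartiles of OCT4 at day 2, signal per kb, and leaving out each library. Keeping the undecided regions in the fit and using each day 4 library alone for class shares were added after seeing the data.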

Additional observations from a re-analysis of the deposited data

How the results depend on the processing

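The median change of OCT4 over all regions depended on scaling, with 0.0343 under median centring, which brings it near 0 by construction, -0.30 for the ratio to input, -0.0577 with a pseudocount 10 times larger and -0.27 over regions above the median signal. Regions called higher numbered 6740 with median centring and 2744 with the ratio to input. With each library left out, 5988 to 9337 regions were called lower, the fewest without library B of day 2, and 2099 to 4085 higher, the fewest without library A of day 2, with a median change of -0.24 to -0.10. In these fits the day left with 1 library is assumed to vary like the other day. With a plain fold limit of 2 on the pooled values 7418 regions were lower and 2936 higher. The kept share was 73.3% at 1.5 times the input, 38.9% at 3 times, 52.5% with a floor of 0.5 RPM and 65.6% with 2 RPM, and 53.5% to 61% with each library left out. Differences in kept share between classes kept their sign within quartiles of OCT4 at day 2, per kb and with each day 4 library alone, but high-score motif regions were no longer below low-score regions when split by SOX17 (76.3% against 74.8% with and 32.5% against 29.4% without). With and without SOX17, the difference was 38.7, 38.5, 38.4 and 37.7 points within quartiles of OCT4 at day 2 and 37.3 to 44.0 with each day 4 library alone. Between early and transient regions it was 38.8 points in the lowest quartile and 38.4 to 47.8 with each library alone, and between late and transient regions 56.4 in the second quartile, 42.9 per kb and 42.7 to 52.1. Between high and low motif scores it was -18.0, -17.0, -14.4 and -9.42 points in the quartiles and -12.8 to -4.31 with each library alone, and between naive regions and active enhancers 39.1, 38.4, 37.5 and 24.6 and 18.6 to 33.0. The cause of these shifts was not tested. Of 38 named regions tested, the ratio to input turned the sign of 1, Col4a2 (-0.34), and ended the call of 8. No paired analysis was possible because the recovered libraries carry no replicate number. Peaks of the authors as the limit for bound were not run, since no column used here holds them. With 8.85 M reads in the shallower input of day 4, a region at the median rests on few input reads, which limits the kept call of low regions.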
